A study of Mus musculus with 8 samples.

Results

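The 38 genes described here encode the microtubule and neurofilament cytoskeleton of neurons. They were chosen by symbol: α- and β-tubulins, proteins that bind, stabilise or destabilise microtubules, the dynein motor with its regulators, the neuronal intermediate filaments and the growth cone protein Gap43. All 38 were measured, among 21116 features tested, 15019 of which carried a gene name. The RNA came from dissociated mouse hippocampal neurons that received a lentivirus after 10 days in culture and were collected 6 days later. The virus carried GFP (4 samples) or the nuclear receptor Nr4a1 with a Flag tag (4 samples). All samples thus carried a lentivirus and a transgene, and the labels do not name the promoter that drove it, the strain or the age of the animals. Each sample was labelled with Cy5 and hybridised on 1 two-colour array against Universal Mouse Reference RNA labelled with Cy3, with no dye swap. Values are log2 ratios of sample over reference, and differences are the Nr4a1-labelled arrays minus the GFP-labelled arrays on that scale, ± SE from a limma fit with the labelled pair as a block. A gene is said to have risen or fallen where its Benjamini-Hochberg adjusted p over all features was below 0.05.

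Microtubules are hollow polymers of α- and β-tubulin dimers that give axons and dendrites their shape and carry the motors kinesin and dynein. Structural microtubule-associated proteins and the doublecortin family stabilise the polymer, stathmins bind free dimers and promote disassembly, and the collapsin response mediator proteins (CRMPs) carry tubulin to growing ends and act in axon guidance. Neurofilaments, which are intermediate filaments built from light, medium and heavy subunits with α-internexin, support the calibre of axons. Many tubulin isotypes, Dcx, Stmn1 and Gap43 are known for high expression in young neurons.

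Upstream sequences were matched by symbol in the RefSeq promoter table (GRCm38.p6), which gave 29 promoters for 24 of the 38 genes, each running from 250 bases before to 50 bases after the annotated start. The 120 bases before the start are shown for Dcx and for the tubulin genes that fell and had an entry, because these tubulin genes fell and Dcx differed most in the ratio. Capitals mark GC boxes (GGGCGG, read on either strand as GGGCGG or CCGCCC), the cAMP response element (TGACGTCA) and the TATA box (TATAAA).
Tuba1a, chr15:98953502-98953621, minus strand: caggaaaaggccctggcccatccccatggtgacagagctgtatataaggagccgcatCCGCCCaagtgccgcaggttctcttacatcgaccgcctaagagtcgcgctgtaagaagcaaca
Tuba1b, chr15:98934391-98934510, minus strand: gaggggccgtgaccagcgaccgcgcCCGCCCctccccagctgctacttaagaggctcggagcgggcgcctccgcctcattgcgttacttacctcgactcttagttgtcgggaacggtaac
Tuba4a, chr1:75219295-75219414, minus strand: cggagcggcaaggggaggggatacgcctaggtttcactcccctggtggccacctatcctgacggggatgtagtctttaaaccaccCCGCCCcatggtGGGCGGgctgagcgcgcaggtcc
Tubb2a, chr13:34078009-34078128, minus strand: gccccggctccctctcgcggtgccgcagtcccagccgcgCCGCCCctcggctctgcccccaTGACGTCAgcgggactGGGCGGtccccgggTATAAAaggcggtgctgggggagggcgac
Tubb4a, chr17:57087601-57087720, minus strand: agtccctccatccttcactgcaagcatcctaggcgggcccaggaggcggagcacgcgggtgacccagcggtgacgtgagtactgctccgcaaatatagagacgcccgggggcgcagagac
Tubb5, chr17:35838302-35838421, minus strand: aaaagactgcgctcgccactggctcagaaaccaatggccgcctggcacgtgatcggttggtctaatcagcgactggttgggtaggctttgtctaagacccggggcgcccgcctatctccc
Dcx, chrX:143933220-143933339, minus strand: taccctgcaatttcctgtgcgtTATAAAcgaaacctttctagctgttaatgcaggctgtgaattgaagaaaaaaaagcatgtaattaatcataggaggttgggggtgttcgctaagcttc
Tubb2a carries the cAMP response element 59 bases and the TATA box 29 bases before its start, with a GC box on either side of the former. The GC box was found in 18 of the 29 promoters and in 35.7% of all 32851 promoters of the table. The cAMP response element was found in 1 of 29, against 1.79% of all promoters, and the TATA box in 5 of 29, against 13.6%. These 5 were promoters of Dcx, Map1b, Ndel1 and Tubb2a, with the same Dcx site counted again in an overlapping promoter. The NBRE (AAAGGTCA), the monomer site to which Nr4a receptors are known to bind, was in 0 of the 29 and in 1.51% of all promoters. Its nuclear receptor half-site (AGGTCA, contained in the NBRE) was in 2, those of Crmp1 and Dclk1, against 16.3% of all. These are matches of letters on either strand in a short window.

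The array probe for Nr4a1 did not separate the groups. Its log2 ratio was -2.06, -2.12, -1.90 and -2.49 on GFP replicates 1 to 4 and -1.32, -2.49, -1.20 and -2.37 on Nr4a1 replicates 1 to 4. The difference was 0.30 ± 0.15 (limma, adjusted p = 0.193), and whether this probe lies within the transgene was not tested, so groups are named here by their labels. Between 60.9% and 69.2% of Cy5 spots were well above background per array, and no spot was saturated. The 12 pan-neuronal markers had a mean log2 ratio of 3.55 to 3.65 on GFP-labelled arrays and 3.49 to 3.68 on Nr4a1-labelled arrays, a mean above the reference on every array. All GFP-labelled arrays lay on 1 slide and the Nr4a1-labelled arrays on 2 others, so slide and group cannot be told apart. Replicate 4 of either group carries batch tag 2 in the labels, and the other replicates carry tag 1. Nr4a1 replicate 4 also lay alone on its slide. The reference RNA is the same on every array, yet its Cy3 channel, analysed alone after the ratios had been seen, differed between the groups for 12.7% of features. Cy3 differences are therefore given beside many of the members below.

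Of the 38 genes, 20 fell, 4 rose (Dclk1, Tubb6, Nefm and Nde1) and 14 did not pass the test. Over all features, 11.5% fell and 12.8% rose, against 52.6% and 10.5% of the 38 genes. The median difference of the 38 was -0.22, and that of all features was 0.00. All 20 genes that fell were lower in each of the 4 pairs, and the 4 that rose were higher in each. Every Nr4a1-labelled array lay below every GFP-labelled array for 16 of the 38 genes and for 11.7% of all features, and above for 4 of the 38 and 12.7% of all features. The genes are bright: 26 of the 38 fell within the brightest 10% of features by Cy5 signal, where 12.5% of features fell and the median difference was -0.01. By pair, 30, 30, 34 and 26 of the 38 genes were lower in replicates 1 to 4, against 48.0%, 50.3%, 55.1% and 47.5% of all features. In bulk RNA, fewer cells of a type and less RNA per cell cannot be told apart.

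**Figure D1:**
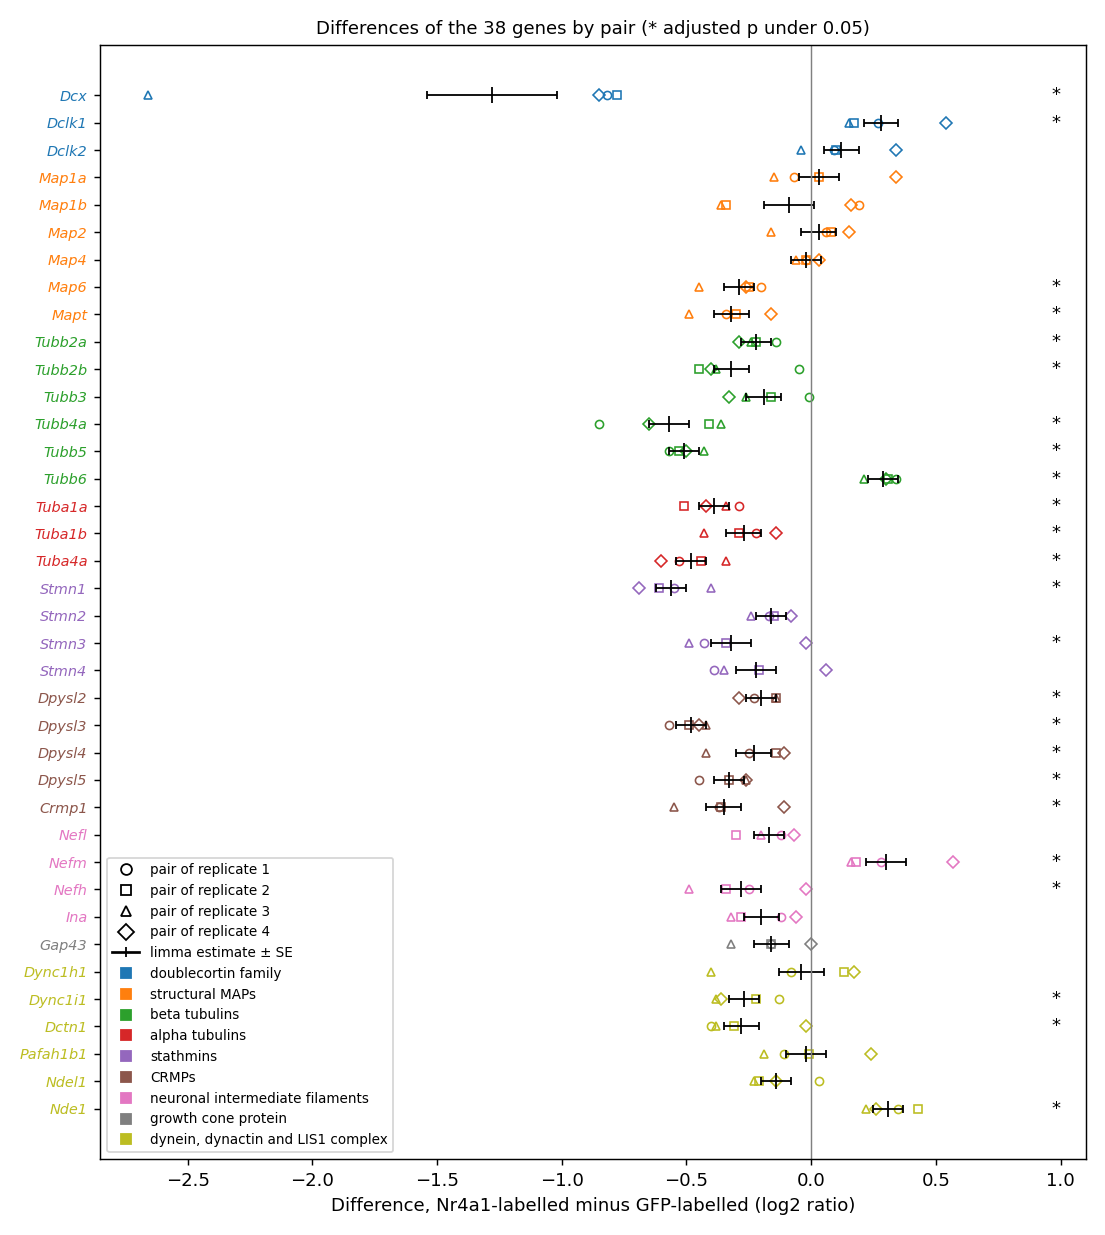
Differences between the Nr4a1-labelled and the GFP-labelled array of each pair (log2, horizontal axis) for the 38 genes in their role groups, with the fitted difference ± SE as a bar and a star for an adjusted p under 0.05. Dcx lies farthest to the left, with 1 pair at -2.66, while Dclk1, Tubb6, Nefm and Nde1 lie to the right of 0 in every pair.

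These counts depend on how slide and background are treated. With slide added as a random effect (correlation 0.863), limma called 0 members in either direction (4 lower and 0 higher at an unadjusted p under 0.05). No slide held arrays of both groups, so a slide correlation this high leaves that fit little information on the groups. The correlation itself rests on replicate 4, whose Nr4a1-labelled array lay on a slide of its own. This fit therefore cannot show whether slide bears on the calls. With the spots of uneven local background kept in the correction, limma again called 0 (21 lower and 2 higher unadjusted); Nr4a1 replicate 2 held 37 such spots, the most of any array. The scanner software's own ratio left 8 lower and 2 higher, and median centring 8 lower and 4 higher. Centring moved the rises among all called features from 52.7% to 73.3%. Calls lost under the processing settings are not all listed gene by gene below. Without replicate 2, 13 genes fell. In the Cy5 channel alone, which is also the numerator of the ratio, 15 of the 20 genes also fell and all 4 also rose. Over all features, Cy5 alone called 2850 lower and 3173 higher. For 15 of the 24 genes that passed, the Cy3 difference was at most 0.1 in size. The median size of the Cy3 difference over all features was 0.077.

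**Figure D2:**
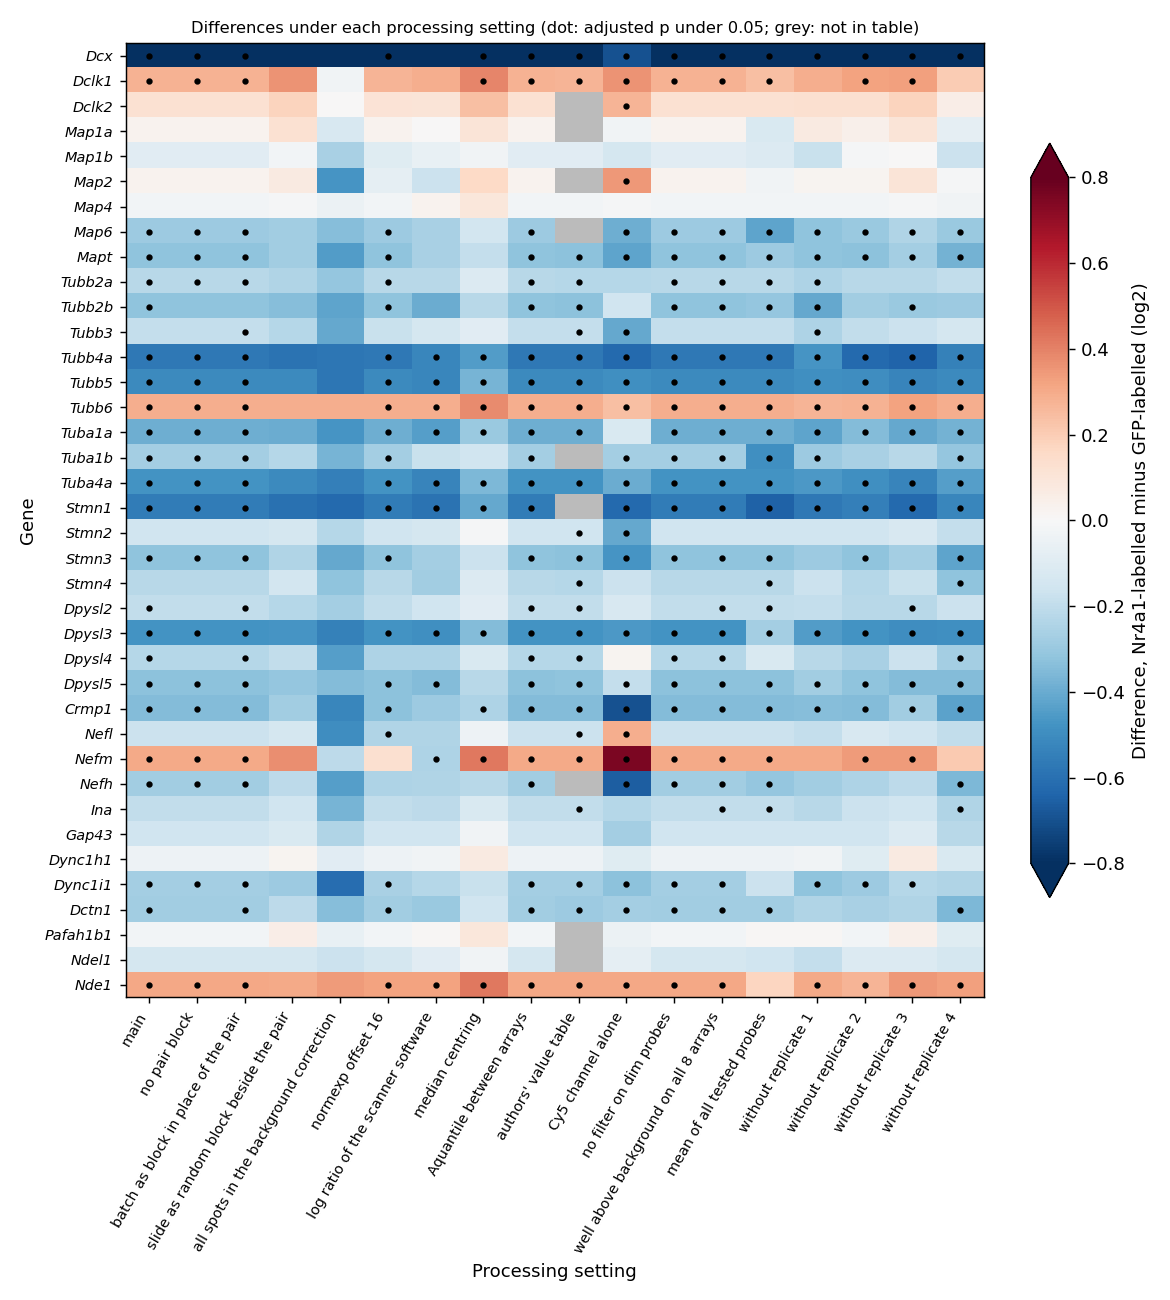
Difference between the groups (log2, colour; blue lower, red higher on Nr4a1-labelled arrays) for each of the 38 genes (vertical axis) under the main processing and each alternative (horizontal axis), with a dot where the adjusted p was under 0.05 and grey where the gene had no value. The columns of the random slide effect and of the correction with all spots hold no dot, while Tubb4a, Tubb5, Tubb6, Tuba4a and Dpysl3 carry one in every other column. The Aquantile column repeats the main one, since that step leaves the log ratios unchanged.

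All 3 α-tubulins fell. Tuba1a, the main α-tubulin of developing neurons, stood at 5.72, 5.74, 5.78 and 5.99 on GFP replicates 1 to 4 and at 5.43, 5.23, 5.44 and 5.57 on the Nr4a1-labelled arrays. It fell by 0.39 ± 0.06 on the log2 scale, or 1.31-fold (limma, adjusted p = 0.00153), with no overlap between the groups. In Cy5 alone the Tuba1a difference was -0.12 and did not pass, with a Cy3 difference of 0.27. Tuba4a, an isotype linked to mature neurons, stood at 2.28, 2.34, 2.25 and 2.37 on GFP-labelled arrays and at 1.75, 1.89, 1.91 and 1.77 on Nr4a1-labelled arrays. Its fall of 0.48 ± 0.06, or 1.39-fold (adjusted p = 0.000516), came with a Cy3 difference of 0.08 and no overlap. Tuba1b, a widely expressed isotype, stood at 1.07, 1.07, 1.16 and 1.01 against 0.85, 0.78, 0.73 and 0.87. It fell by 0.27 ± 0.07 (adjusted p = 0.0138), again with separate groups, and its second probe differed by -0.70. The Tuba1b call was lost without replicate 2 (-0.26) and without replicate 3 (-0.22). Tubulin isotypes are near-identical in sequence, and whether probes hybridise across them was not tested.

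Among 6 β-tubulins, 4 fell, 1 rose and Tubb3 did not pass. Tubb5, an isotype abundant in progenitors and young neurons, stood at 0.90, 0.87, 0.82 and 0.76 on GFP-labelled arrays and at 0.33, 0.33, 0.39 and 0.27 on Nr4a1-labelled arrays. It fell by 0.51 ± 0.06, or 1.42-fold (limma, adjusted p = 0.000197), with a gap between the groups wider than the range within either and a Cy3 difference of 0.02. Tubb4a, the brain isotype also known from oligodendrocytes, stood at 0.62, 0.49, 0.41 and 0.40 against -0.23, 0.08, 0.05 and -0.24. Its fall of 0.57 ± 0.08, or 1.48-fold (adjusted p = 0.00104), left no overlap. Tubb2a, a major neuronal isotype, stood at 5.92, 5.90, 5.95 and 5.96 on GFP-labelled arrays and at 5.78, 5.67, 5.70 and 5.67 on Nr4a1-labelled arrays. It fell by 0.22 ± 0.06 (adjusted p = 0.0201), a small step between groups that did not overlap.

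Tubb2b, its close paralog, mutated in human cortical malformations, stood at 6.19, 5.99, 6.16 and 6.27 against 6.14, 5.55, 5.79 and 5.87, and fell by 0.32 ± 0.07 (limma, adjusted p = 0.0117) with overlapping groups, since Nr4a1 replicate 1 lay within the GFP range. Without the pair as a block its call was lost at the same difference of -0.32, and it was also lost in Cy5 alone (-0.16, with a Cy3 difference of 0.16). The Tubb2a call was lost in Cy5 alone (-0.23) and without replicate 2 (-0.22), replicate 3 (-0.22) or replicate 4 (-0.20), and that of Tubb2b without replicate 2 (-0.28) or replicate 4 (-0.29). Tubb3, the neuron-specific isotype used as a neuronal marker, differed by -0.19 ± 0.07 (adjusted p = 0.0650), and without replicate 1 it passed at -0.25. In Cy5 alone Tubb3 differed by -0.41 and passed, and its Cy3 difference was -0.22. Tubb6, an isotype low in neurons, moved the other way: it stood at -3.03, -3.07, -2.97 and -3.07 on GFP-labelled arrays and at -2.69, -2.76, -2.77 and -2.77 on Nr4a1-labelled arrays. It rose by 0.29 ± 0.06, or 1.22-fold (adjusted p = 0.00535), with the groups apart and a Cy3 difference of -0.05.

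**Figure D3:**
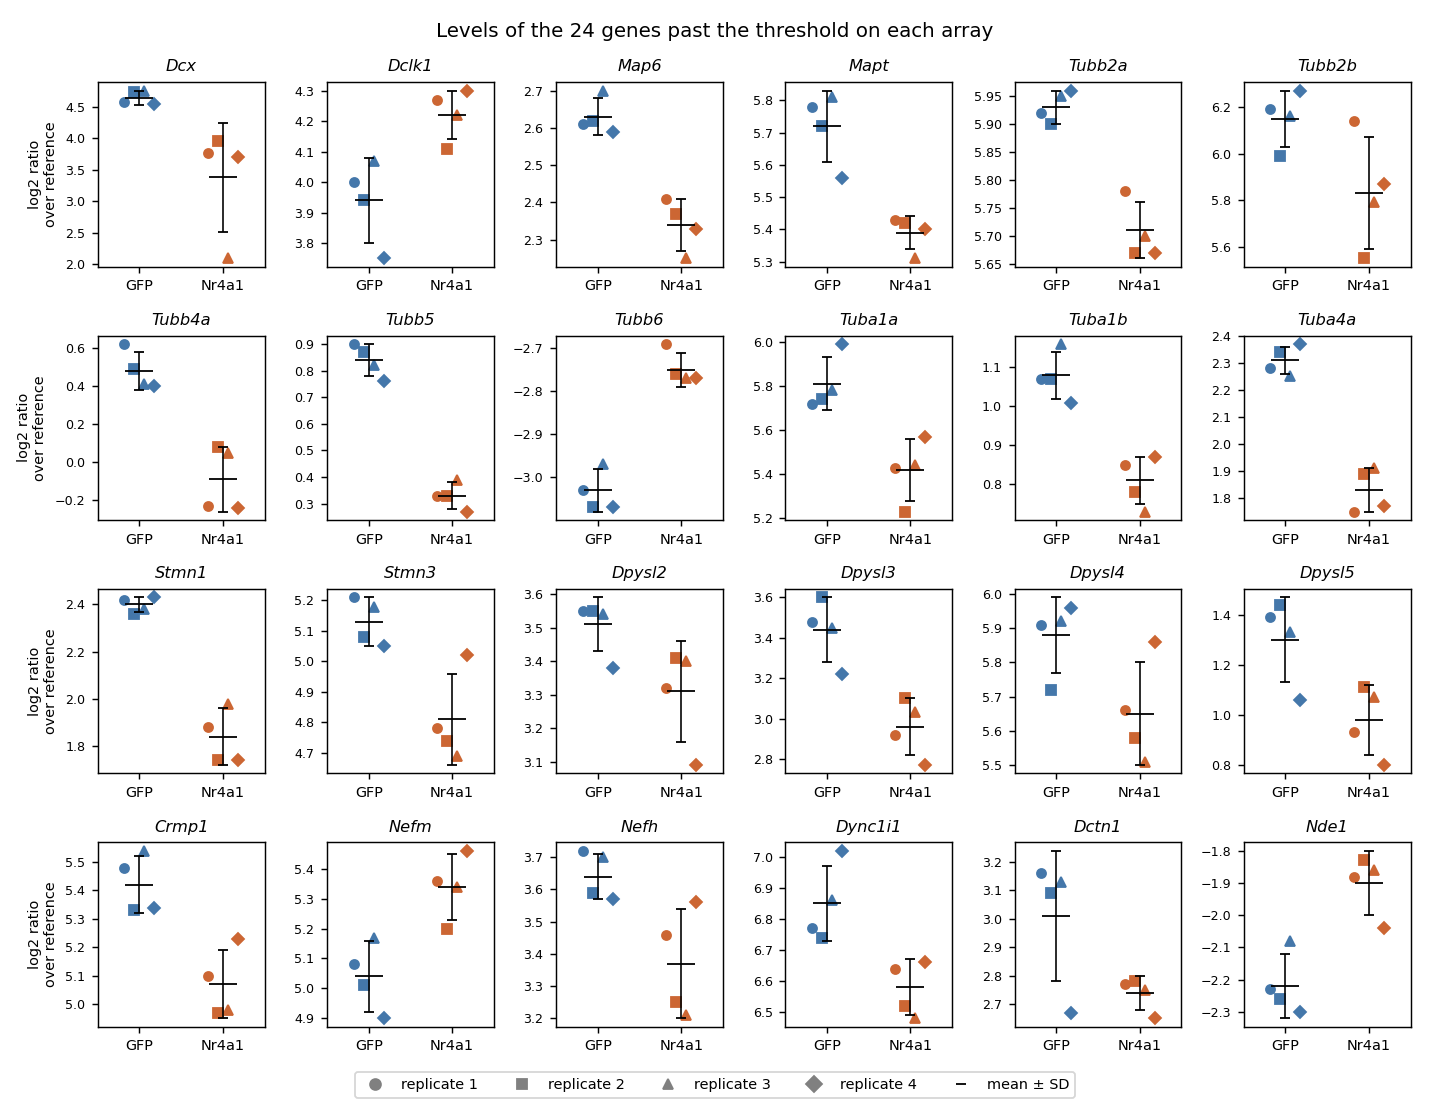
Log2 ratio of sample over reference on each array (vertical axis, its own range per gene) for the 24 genes that rose or fell, with GFP-labelled arrays in blue, Nr4a1-labelled arrays in orange, a marker shape per replicate and bars for the mean ± SD. Tubb5, Tuba4a, Stmn1 and Dpysl3 show the groups apart, whereas Tubb2b overlaps and Dcx has 1 Nr4a1-labelled array at 2.09.

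Among the 4 stathmins, 2 fell, and all 4 differences were negative. Stmn1, which sequesters tubulin dimers, stood at 2.42, 2.36, 2.38 and 2.43 on GFP-labelled arrays and at 1.88, 1.74, 1.98 and 1.74 on Nr4a1-labelled arrays. It fell by 0.56 ± 0.06, or 1.48-fold (limma, adjusted p = 0.000213), with the groups well apart, a second probe at -0.73 and a Cy3 difference of -0.06. Stmn3, a Golgi-anchored neuronal stathmin, stood at 5.21, 5.08, 5.18 and 5.05 against 4.78, 4.74, 4.69 and 5.02. Its fall of 0.32 ± 0.08 (adjusted p = 0.0159) left Nr4a1 replicate 4 just under the lowest GFP-labelled array. The Stmn3 call was lost without replicate 1 (-0.29) or replicate 3 (-0.27). Stmn2, a factor of axon growth, differed by -0.16 ± 0.06 (95% interval -0.29 to -0.03, adjusted p = 0.0742). It passed in Cy5 alone at -0.41, beside a Cy3 difference of -0.25 that itself passed, and in the authors' value table at -0.16. Stmn4 differed by -0.22 ± 0.08 (interval -0.40 to -0.05, adjusted p = 0.0651). It passed without replicate 4 (-0.32), with the mean of all tested probes and in the authors' value table. Its second probe, equally bright, differed by -0.22 and passed at the probe level (limma, adjusted p = 0.0339).

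All 5 CRMP genes fell. Dpysl3 (CRMP4), a developmental member of the family, stood at 3.48, 3.60, 3.45 and 3.22 on GFP-labelled arrays and at 2.92, 3.10, 3.03 and 2.77 on Nr4a1-labelled arrays. It fell by 0.48 ± 0.06 (limma, adjusted p = 0.000289), without overlap and with a Cy3 difference of 0.02, while a second, much dimmer probe differed by -0.06. Dpysl5 (CRMP5) stood at 1.39, 1.44, 1.33 and 1.06 against 0.93, 1.11, 1.07 and 0.80 and fell by 0.33 ± 0.06 (adjusted p = 0.00390), lower in every pair although GFP replicate 4 lay within the Nr4a1 range. In Cy5 alone Dpysl5 fell by 0.19, with a Cy3 difference of 0.14. Crmp1, which mediates semaphorin signals, stood at 5.48, 5.33, 5.54 and 5.34 against 5.10, 4.97, 4.98 and 5.23. It fell by 0.35 ± 0.07 (adjusted p = 0.00776), by 0.70 in Cy5 alone, with a Cy3 difference of -0.35 that itself passed.

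Dpysl2 (CRMP2), which binds tubulin dimers and promotes axon formation, stood at 3.55, 3.55, 3.54 and 3.38 on GFP-labelled arrays and at 3.32, 3.41, 3.40 and 3.09 on Nr4a1-labelled arrays. Its fall was small, 0.20 ± 0.06 (limma, adjusted p = 0.0334), with GFP replicate 4 below Nr4a1 replicates 2 and 3. Dpysl4 (CRMP3) stood at 5.91, 5.72, 5.92 and 5.96 against 5.66, 5.58, 5.51 and 5.86 and fell by 0.23 ± 0.07 (adjusted p = 0.0324). Dpysl4 overlapped between groups, its second probe differed by -0.02, and in Cy5 alone its sign turned to 0.02 beside a Cy3 difference of 0.25. Both calls were lost without the block at unchanged differences (-0.20 and -0.23). The Dpysl2 call was also lost in Cy5 alone (-0.13) and without replicate 1 (-0.19), replicate 2 (-0.22) or replicate 4 (-0.17), and that of Dpysl4 without replicate 1 (-0.22), replicate 2 (-0.26) or replicate 3 (-0.17).

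The doublecortin family split. Dcx, which binds and bundles microtubules in migrating neurons, stood at 4.58, 4.74, 4.75 and 4.55 on GFP-labelled arrays and at 3.76, 3.96, 2.09 and 3.70 on Nr4a1-labelled arrays. It fell by 1.28 ± 0.26, or 2.43-fold (limma, adjusted p = 0.00609), with every Nr4a1-labelled array below the GFP range and replicate 3 far below the others. Without replicate 3 Dcx fell by 0.82, and in Cy5 alone by 0.70, a size also reached there by Crmp1 (-0.70) and Nefm (0.75). The reference held little Dcx: its Cy3 spot was well above background on only 2 of 8 arrays, so the ratio rests on a faint denominator, which differed by 0.58 between the groups. The call was lost with the scanner software's ratio, which gave -2.41, and with all spots in the correction (-1.87). Another Dcx probe was well above background on 3 arrays and another on 0, and neither was tested.

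Dclk1, a doublecortin-like kinase, stood at 4.00, 3.94, 4.07 and 3.75 on GFP-labelled arrays and at 4.27, 4.11, 4.22 and 4.30 on Nr4a1-labelled arrays. It rose by 0.28 ± 0.07, or 1.22-fold (limma, adjusted p = 0.0212), with no overlap, and its other probes gave 0.21 and 0.23. The Dclk1 call was lost without replicate 1 (0.29) or replicate 4 (0.20), and with all spots in the correction the difference was -0.03. Dclk2 differed by 0.12 ± 0.07 (95% interval -0.04 to 0.28, adjusted p = 0.249), and in Cy5 alone by 0.27, which passed beside a Cy3 difference of 0.15.

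Of 6 structural microtubule-associated proteins, Mapt and Map6 fell and none rose. Mapt, which encodes the axonal protein tau, stood at 5.78, 5.72, 5.81 and 5.56 on GFP-labelled arrays and at 5.43, 5.42, 5.31 and 5.40 on Nr4a1-labelled arrays. It fell by 0.32 ± 0.07 (limma, adjusted p = 0.00648) with no overlap, and its other probes gave -0.32 and -0.21. Map6, which makes microtubules stable in the cold, stood at 2.61, 2.62, 2.70 and 2.59 against 2.41, 2.37, 2.25 and 2.33. Its fall of 0.29 ± 0.06 (adjusted p = 0.00876) separated the groups, and a dimmer probe differed by -0.55. The calls of Mapt and Map6 were both lost with the scanner software's ratio and with median centring.

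Map2, the dendritic marker, differed by 0.03 ± 0.07 (95% interval -0.12 to 0.18). In Cy5 alone Map2 differed by 0.35 and passed, beside a Cy3 difference of 0.31. Map1b, prominent in growing axons, differed by -0.09 (interval -0.31 to 0.14), and Map4, the widespread non-neuronal form, by -0.02 (interval -0.14 to 0.11). Map1a, the adult partner of Map1b, differed by 0.03 (interval -0.15 to 0.22) at its brightest probe and by -0.28 at the other, which passed at the probe level (limma, adjusted p = 0.0470).

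The neurofilament subunits did not move together. Nefh, the heavy subunit, stood at 3.72, 3.59, 3.70 and 3.57 on GFP-labelled arrays and at 3.46, 3.25, 3.21 and 3.56 on Nr4a1-labelled arrays. It fell by 0.28 ± 0.08 (limma, adjusted p = 0.0278) with Nr4a1 replicate 4 just below the lowest GFP-labelled array, and its second probe gave -0.34. The Nefh call was lost without replicate 1 (-0.28), replicate 2 (-0.25) or replicate 3 (-0.21). Nefm, the medium subunit, stood at 5.08, 5.01, 5.17 and 4.90 against 5.36, 5.20, 5.34 and 5.46. It rose by 0.30 ± 0.08, or 1.23-fold (adjusted p = 0.0178), without overlap. The direction of Nefm turned with the scanner software's ratio (-0.25) and with all spots in the correction (-0.21), and its call was lost without replicate 1 (0.30) or replicate 4 (0.21).

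Nefl, the light subunit, differed by -0.17 ± 0.06 (95% interval -0.31 to -0.03) and missed the threshold (limma, adjusted p = 0.0732), although its groups did not overlap. In Cy5 alone Nefl differed by 0.29, the opposite sign. The reference channel differed between the groups for each neurofilament subunit, by 0.46 for Nefl, 0.45 for Nefm and -0.39 for Nefh, so ratio and Cy5 give unlike sizes for all 3; in Cy5 alone Nefm differed by 0.75 and Nefh by -0.66. Ina, which encodes α-internexin, differed by -0.20 ± 0.07 (interval -0.34 to -0.05, adjusted p = 0.0512) and passed without replicate 4 (-0.24). Gap43, a membrane protein of growth cones, stood at 4.32, 4.12, 4.22 and 4.23 against 4.16, 3.96, 3.90 and 4.23. Its difference of -0.16 ± 0.07 did not pass (adjusted p = 0.107), and the groups overlapped.

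Of 6 dynein, dynactin and LIS1 complex genes, 2 fell and 1 rose. Dync1i1, the neuronal intermediate chain of dynein, stood at 6.77, 6.74, 6.86 and 7.02 on GFP-labelled arrays and at 6.64, 6.52, 6.48 and 6.66 on Nr4a1-labelled arrays. It fell by 0.27 ± 0.06 (limma, adjusted p = 0.0134) without overlap, and its second probe differed by -0.08. The call was lost without replicate 4 (-0.24) and with the mean of all tested probes. Dctn1, the p150Glued subunit of dynactin, stood at 3.16, 3.09, 3.13 and 2.67 against 2.77, 2.78, 2.75 and 2.65. Its fall of 0.28 ± 0.07 (adjusted p = 0.0213) came with GFP replicate 4 inside the Nr4a1 range, and was lost without the block (-0.28) and without replicate 1 (-0.24), replicate 2 (-0.26) or replicate 3 (-0.24).

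Nde1, a dynein regulator of dividing progenitors, stood at -2.23, -2.26, -2.08 and -2.30 on GFP-labelled arrays and at -1.88, -1.83, -1.86 and -2.04 on Nr4a1-labelled arrays. It rose by 0.31 ± 0.06, or 1.24-fold (limma, adjusted p = 0.00494), with no overlap. Its dimmer probes gave 0.12 and 0.08, and it did not pass with the mean of all tested probes. Its paralog Ndel1, which acts in postmitotic neurons, differed by -0.14 (95% interval -0.28 to 0.01). Pafah1b1, which encodes LIS1, differed by -0.02 (interval -0.19 to 0.15), and Dync1h1, the dynein heavy chain, by -0.04 (interval -0.25 to 0.16).

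Across 9 lists of other microtubule and filament genes, 131 genes were measured, of which 17 (13.0%) rose, 16 (12.2%) fell and the median difference was -0.04, shares near the 12.8% and 11.5% of all features. Of 10 other tubulin genes, only Tuba8 passed: it rose by 0.51 ± 0.07 (limma, adjusted p = 0.000542), while Tubb4b, an abundant β-tubulin, differed by 0.02. Among 15 tubulin folding genes 4 fell and none rose. They were Cct4 (-0.37) and Tcp1 (-0.20), subunits of the chaperonin that folds tubulin, and the tubulin cofactors Tbcb (-0.31) and Tbcd (-0.30). Of 14 tubulin modifying enzymes, Vash2 (0.73), a tubulin detyrosinase, and Ttl (0.49), the ligase that reverses this step, rose, and Vash1 (-0.38) and Ttll1 (-0.20) fell. Of 8 severing and depolymerising factors, Spast (0.27), Fignl1 (0.32) and Kif2c (0.21) rose and none fell.

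Among 17 plus-end and minus-end proteins, Mapre2 rose (0.32) and Clip2 (-0.35), Camsap3 (-0.26) and Nav1 (-0.21) fell. Of 19 further microtubule-associated proteins 4 rose and 2 fell, including Map7 (1.26), which recruits kinesin, Map7d2 (0.64, but -0.17 with all spots in the correction), Prc1 (0.40) and Map9 (-0.45). Among 16 kinase and phosphatase genes acting on these proteins, Mapk8 (0.27) rose, and Ppp2r2b (-0.33) and Cdk5r1 (-0.19) fell. Of 22 further dynein and dynactin genes 3 rose and 3 fell, with Hook1 at 0.34, Nin at 0.30, and Dynll1 and Actr1a both at -0.24. Of 10 other intermediate filament genes, Vim (0.62) and Nes (0.65), both known from progenitors, rose and none fell. Gfap, the astrocyte filament in the same list, differed by -0.16 and did not pass (limma, adjusted p = 0.108). The 51 related and marker genes selected by the rule all lost their calls with slide as a random effect, and 45 lost or reversed them with all spots in the correction.

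**Figure D4:**
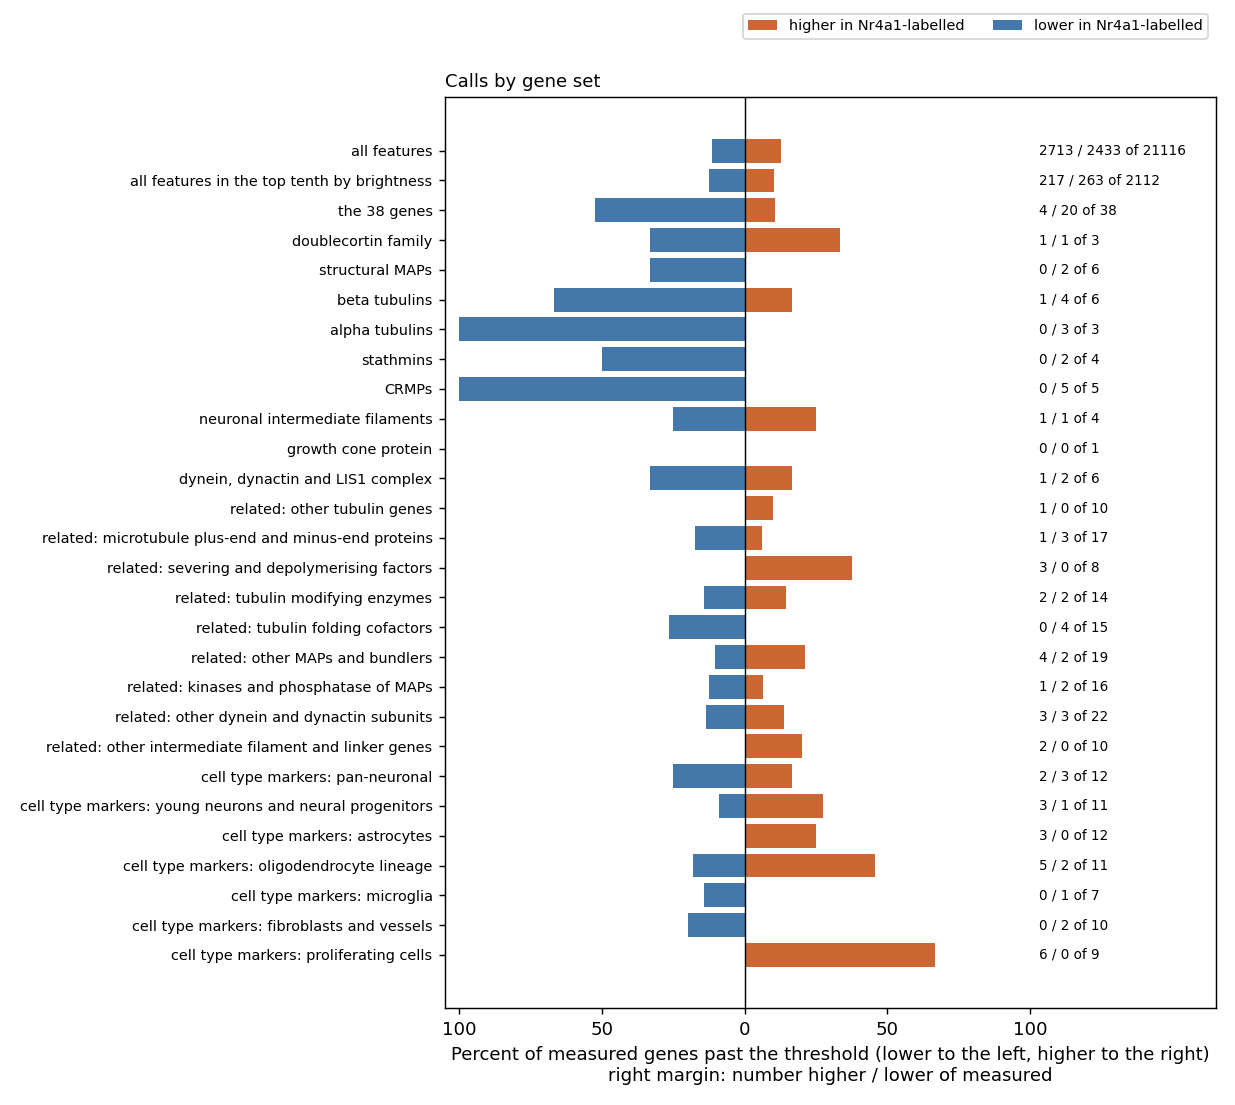
Share of measured genes that rose (right of 0) or fell (left of 0) in each role group, related list and marker list, in percent, with counts (higher, then lower, of those measured) at the right and all 21116 features for comparison. The α-tubulins and CRMPs reach 100% on the lower side, whereas the related lists lie between 0% and 26.7% there.

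Markers of other cells moved in both directions on the same arrays. Of 9 proliferation markers 6 rose, among them Rrm2 (1.26), Ccnb1 (0.70), Birc5 (0.54) and Bub1 (0.38). Bub1 was well above background on only 1 of 4 GFP-labelled arrays, so it entered the test through the group where it was higher. The list's mean log2 ratio was -4.12 to -3.88 on GFP-labelled arrays and -3.61 to -3.48 on Nr4a1-labelled arrays. Of 11 oligodendrocyte lineage markers 5 rose and 2 fell, with Pdgfra at 0.75, Olig2 at 0.39 and Mbp at -0.94, and their mean level went from 0.82 to 0.96 up to 1.08 to 1.12. Of 12 astrocyte markers Gja1 (0.37), Sox9 (0.34) and Aqp4 (0.43) rose, at 3.23 to 3.36 against 3.32 to 3.43. The other astrocyte markers did not pass. Of the 12 differences 7 were positive and 5 negative, among them Gfap (-0.16) and Aldoc (-0.13), and the list's median was 0.05. The young neuron and progenitor list (11 genes, 2.12 to 2.25 against 2.19 to 2.41) held 3 rises, in Insm1 (0.33), Sox11 (0.28) and Sox2 (0.21), and 1 fall, in Igfbpl1 (-0.30).

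Of 12 pan-neuronal markers 2 rose, Eno2 (0.29) among them, and Thy1 (-0.36), Syt1 (-0.25) and Uchl1 (-0.25) fell. Of 7 microglial markers Csf1r (-0.75) fell, at -1.78 to -1.72 against -1.94 to -1.82, and Cx3cr1, C1qa, C1qc, P2ry12 and Cd68 were not tested. Of 10 fibroblast and vessel markers Lum (-1.0) and Dcn (-0.59) fell, at -2.63 to -2.57 against -2.78 to -2.72. The part of these cells in the changes of the 38 genes was not tested.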

How the data were processed

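Total RNA of 4 GFP-labelled and 4 Nr4a1-labelled samples was measured on 8 two-colour Agilent arrays of 39429 probes. The deposited scanner files hold linear Cy5 and Cy3 intensity values per spot and a log10 ratio; per the file headers, the scanner software was Agilent Feature Extraction 11.0.1.1. The authors' deposited value table holds log2 ratios of 24275 probes: set against the scanner values on each array it ran the same way, with correlations of 0.998 to 1.00 and column medians of 0.024 to 0.0312, and its centring is not stated. Per the submitters' processing notes, limma was used. Background was corrected here on median signals (normexp, offset 50) without spots of uneven local background, followed by loess within arrays with control spots at weight 0. Outlier spots were removed and spots averaged per probe. Probes were named through RefSeq accessions (GRCm38.p6), which named 26581 and left 12848 unnamed. Probes entered the test if at least 4 of the 8 arrays showed Cy5 well above background and each group had 3 values; the brightest probe stood for a gene. All 38 genes were well above background on all 8 arrays, and 17 had several tested probes.

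Differences were fitted with limma 3.58.1 (R 4.3.3), two-sided, with the pair tag of the labels as a block and adjusted p over 21116 features at a threshold of 0.05. Deviations of same-pair samples correlated at -0.10, 0.28, -0.017 and 0.42 for replicates 1 to 4. GFP replicates 2 and 4 correlated best with their own partner, and replicates 1 and 3 did not, so the pairing was taken from the labels. Whether replicates were separate cultures is not given in the labels; p-values therefore measure only how these samples spread, possibly for technical reasons. The number of arrays limits the precision. The fit was also run on simulated data. Those held pair effects and independent noise but no slide effect, so they cannot show how slide bears on the calls.

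The 38 genes, the related lists and the marker lists were chosen with earlier results of these data known. The rule for named genes gave array values for each of the 38 past the threshold and, in a role group with none, for the gene of smallest p (Gap43). In each other list, the genes past the threshold are named, at most the 4 of smallest p. The values of 1 marker gene so selected are not reported here. The analysis of Cy3 alone was chosen after values were seen. Single channels were taken after loess and Aquantile; loess adjusts both channels of an array together, so Cy3 values taken this way are not independent of Cy5. Alternatives changed the block, the background correction, the normalization, the channel, the filter on dim probes, the choice of probe and the replicates used.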

Additional observations from a re-analysis of the deposited data

Results flagged for a closer look

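Among 76 groups of 4 arrays (the 38 genes in either group), 5 (6.58%) held 1 array whose gap to its nearest neighbour took more of the group's range than Dixon's 95% critical value. Chance alone does so in about 1 of 20 groups. Dcx on Nr4a1 replicate 3 had a log2 ratio of 2.09, against 3.70 on the nearest array. Tubb6 on Nr4a1 replicate 1 had -2.69, against -2.76. The other 3 such values were those of GFP replicate 4: Dpysl2 at 3.38 (nearest 3.54), Dync1h1 at 0.05 (nearest 0.73) and Dctn1 at 2.67 (nearest 3.09). That array differs from the other GFP-labelled arrays in its batch tag.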

How the results depend on the processing

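Several settings kept the counts over the 38 genes within 1.5 times of 20 lower and 4 higher. They were batch in place of the pair, both other filters on dim probes and the mean of all probes. The fits without the replicate block and without replicate 3 (14 lower and 4 higher) also stayed within that range. The filter that asked for all 8 arrays kept all 38 genes, so it could change only their p-values. Aquantile leaves the log ratios unchanged, so its counts could not differ. The authors' value table held only 29 of the 38 genes, of which 21 were lower and 4 higher. Without the replicate block the counts over the 38 were 16 lower and 4 higher, and all features gave 2122 lower and 2352 higher. With slide as a random block 0 of the 38 fell or rose (all features: 4 lower, 8 higher), and when every spot entered the background correction 0 and 0 (97 and 128), at a median difference of -0.36. The scanner software's ratio gave 8 lower and 2 higher (all features: 1350 and 1510). Median centring gave 8 lower and 4 higher (1262 and 3463) at a median of -0.11. Offset 16 gave 18 lower and 2 higher (1983 and 2213), and Cy5 alone 17 lower and 7 higher (2850 and 3173). Leaving out 1 replicate gave 13 to 18 lower and 2 to 4 higher of the 38, and 1619 to 1991 lower and 1768 to 2603 higher over all features.

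Signs turned as follows. With all spots in the correction: Dclk1 -0.03, Map1a -0.13, Map2 -0.47, Nefm -0.21, Aqp4 -0.21, Olig2 -0.13, Insm1 -0.18, Sox2 -0.49 and Map7d2 -0.17. With the scanner software's ratio: Map2 -0.17, Map4 0.03, Nefm -0.25, Pafah1b1 0.01, Aqp4 -0.10, Olig2 -0.23 and Insm1 -0.05. In Cy5 alone: Map1a -0.03, Dpysl4 0.02 and Nefl 0.29. With median centring: Map4 0.09, Dync1h1 0.07 and Pafah1b1 0.09. With slide as a random block: Dync1h1 0.02 and Pafah1b1 0.05. With the mean of all probes: Map1a -0.12, Map2 -0.03 and Pafah1b1 0.01. With offset 16, Map2 was at -0.07. Among genes that had not passed, leaving out 1 replicate gave ranges across 0 for Map1a (-0.07 to 0.10), Map2 (-0.01 to 0.10), Map1b (-0.18 to 0.00), Dync1h1 (-0.12 to 0.07) and Pafah1b1 (-0.10 to 0.04). The cause was not tested. Signal over background limited Dcx in Cy3 and 2 of its 3 probes in Cy5.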

Other observations

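GFP replicate 4 had the lowest log2 ratio of the GFP-labelled arrays for 23 of the 38 genes, and for 34.1% of all features. It was the only GFP-labelled array with batch tag 2, and the part of batch was not tested. GFP replicates 1 and 3 were the lowest for 1 of the 38 genes each, and for 19.8% and 15.2% of all features. In the reference channel alone, 4 of the 38 genes were higher on the Nr4a1-labelled arrays (Map2, Dpysl4, Nefl and Nefm) and 4 were lower (Tubb3, Stmn2, Crmp1 and Nefh), although that RNA is nominally the same. Of the 17 genes with several tested probes, those of 3 (Map1a, Map2 and Pafah1b1) differed in sign.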
